A study of Mus musculus with 2 samples.

Results

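The genes described here are 43 mouse genes of the type I interferon response, out of 32285 genes in the deposited feature lists. They were chosen by name, as genes that cells are known to switch on when they sense type I interferon, and the rule uses no measured value, although earlier results of these data were known when the list was drawn up. Type I interferons are proteins that cells release on meeting viral or misplaced nucleic acid. They bind the receptor made of Ifnar1 and Ifnar2, and the kinases Jak1 and Tyk2 then activate factors such as Stat2, which joins Irf9 to bind a DNA element called the interferon-stimulated response element in the promoters of the response genes. In tumours the same genes mark T cells that have been exposed to interferon, and interferon gamma, which T cells make themselves, switches on an overlapping set.

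The cells were T cells from EMT6 tumours, a transplantable mouse mammary carcinoma grown under the skin of BALB/c mice aged 4 to 6 weeks. In the mSTAR1302 group the mice received mSTAR1302 by the intraperitoneal route once a week for 2 cycles, and in the vehicle group they received vehicle. As its developers present it, mSTAR1302 joins interleukin-2, a cytokine that makes T cells proliferate, to an antibody against the T cell receptor β chains Vβ13-2 and Vβ13-3. Tumours were digested, CD4+ and CD8+ cells were drawn out with magnetic beads, and the cells were profiled with droplet single-cell RNA sequencing that counts the 3′ ends of transcripts. Each group was 1 library, and the sources used here do not say how many mice went into it. No test between the groups was therefore made, every difference lacks a replicate check, and each 95% interval covers counting error only.

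Unique molecular identifiers (UMIs, each standing for 1 captured transcript) numbered 96486469 in the mSTAR1302 library and 110026997 in the vehicle library. Barcodes with at least 1000 UMIs, at least 500 genes and at most 10% mitochondrial UMIs were kept, 9155 in the mSTAR1302 and 7615 in the vehicle library, and T cells were those with at least 2 UMIs over Cd3d, Cd3e and Cd3g. The CD8 gate (a UMI of Cd8a or Cd8b1, none of Cd4) held 6290 mSTAR1302 cells and 2460 vehicle cells. The CD4 gate without Foxp3 held 791 mSTAR1302 and 622 vehicle cells, and the CD4 gate with a Foxp3 UMI, the mark of regulatory T cells, held 146 mSTAR1302 and 1365 vehicle cells. A CD8 cell had a median of 6597.5 UMIs in the mSTAR1302 library and 9865.5 in the vehicle library. Cd3d had a UMI in 96.9% of mSTAR1302 CD8 cells and 97.4% of vehicle CD8 cells. The gate itself requires Cd3 UMIs, so this share is no separate check of the T cell label. A Foxp3 UMI was held by 3.07% of mSTAR1302 and 16.3% of vehicle cells of the CD8 gate, and without those cells the median log2 ratio of the members (mSTAR1302 over vehicle) was 0.58, against 0.57 with them. The libraries differed in transcripts of other cell types, which touches several results below. In the CD8 gate 9 macrophage markers, Lyz2 and C1qa among them and none at 0, summed to 97.0 CPM (counts per 10 to the power 6 UMIs of the gate) in mSTAR1302 cells and 988 CPM in vehicle cells. Another 9 markers, of dendritic cells, summed to 55.5 CPM in mSTAR1302 and 293 CPM in vehicle cells, with Cd209a at 0 in the mSTAR1302 library. Markers of EMT6 cells summed to 22.8 CPM in mSTAR1302 and 128 CPM in vehicle cells. In all, 8.41% of mSTAR1302 and 36.2% of vehicle CD8 cells held at least 3 UMIs of markers of macrophages, dendritic cells, B cells, EMT6 cells or stromal cells. Cells were not brought to equal depth for this share, nor for those of Foxp3 above and Pdcd1 below, and vehicle CD8 cells had more UMIs per cell. The 2 libraries shared 17 kept barcodes. Without them the median log2 ratio of the members in CD8 cells was also 0.57.

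Most interferon response genes stood higher in CD8 cells of the mSTAR1302 library. Of the 43 genes, 42 had a row in the feature lists, and Mx1, an antiviral GTPase, was not analysed here. All 42 passed the floor of 10 UMIs over both libraries in each gate. Levels are UMIs of the gene summed over a gate and scaled to CPM of that gate, and a ratio is mSTAR1302 over vehicle with no added constant. Levels are compared between libraries and not between genes. In CD8 cells 37 of the 42 had a ratio above 1, against 26.8% of the 15112 genes measured in that gate. At least 1.5-fold higher were 19, against 6.15% of all genes, and 1 was at least 1.5-fold lower, against 27.5%. At least 2-fold higher were 8, against 2.95%. The median log2 ratio of the members was 0.57, and that of all measured genes −0.23. A UMI of Pdcd1, the gene of the inhibitory receptor PD-1, was held by 27.5% of mSTAR1302 and 65.2% of vehicle CD8 cells. In cells with one, the median of the members was 0.16, with 6 at least 1.5-fold higher, against 4.3% of all genes. In cells without one it was 0.23, with 9 higher, against 6.5%. The median of all genes was −0.23 in both sets. Over all CD8 cells the counting interval lay above 1 for 30 members, below 1 for 4 and across 1 for 8. That count was not taken over all genes, so it has no share to be set against. With genes required to average at least 5 CPM, 17 of 36 members were at least 1.5-fold higher, against 3% of 8764 genes. Summed over members the level was 2841 CPM in mSTAR1302 CD8 cells and 2083 CPM in vehicle CD8 cells. One gene, Ifi27l2a, supplied 29.4% of the members' UMIs in the mSTAR1302 library and 34.0% in the vehicle library, and without it the sums were 2005 CPM in mSTAR1302 and 1375 CPM in vehicle cells.

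**Figure D1:**
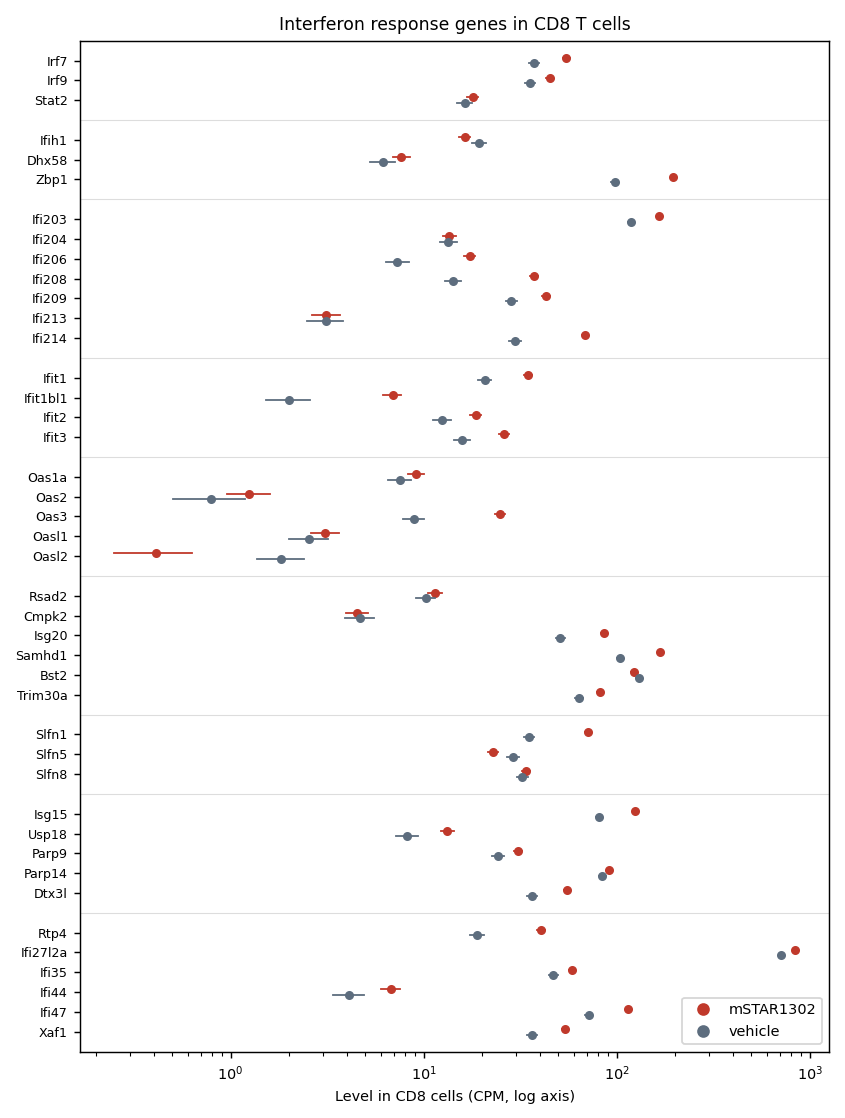
Level of each of the 42 measured interferon response genes in CD8 cells (CPM, log axis), mSTAR1302 in red and vehicle in grey, with exact 95% Poisson intervals that cover counting error only; genes are grouped by role. Red points lie to the right of grey ones for 37 genes, with the widest gaps to that side at Ifit1bl1, Oas3 and Ifi208, and Oasl2 lies the other way.

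The transcription factors of the response were higher by less than 1.5-fold. Irf7, which amplifies interferon production and response, stood at 55.0 CPM in mSTAR1302 CD8 cells and 37.4 CPM in vehicle CD8 cells, a ratio of 1.47 (1.37 to 1.58). Irf9, the DNA-binding part of the complex with Stat2, stood at 45.0 CPM in mSTAR1302 and 35.8 CPM in vehicle cells, a ratio of 1.26 (1.17 to 1.35). Stat2 stood at 18.0 CPM in mSTAR1302 and 16.3 CPM in vehicle cells with an interval of the ratio that held 1 (0.98 to 1.24). Of these 3, Irf7 had the largest ratio, and Irf9 and Stat2 lay below 1 in CD8 cells with a UMI of Pdcd1.

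Among the sensors of nucleic acid, Zbp1 stood apart. Zbp1, which binds nucleic acid in the left-handed Z form and can start cell death, reached 196 CPM in mSTAR1302 CD8 cells and 97.6 CPM in vehicle CD8 cells, 2.01-fold higher (1.93 to 2.10). Ifih1, the RNA sensor MDA5, went the other way at 16.3 CPM in mSTAR1302 and 19.5 CPM in vehicle cells, 1.19-fold lower (1.07 to 1.33). Dhx58, the related sensor LGP2, stood at 7.68 CPM in mSTAR1302 and 6.15 CPM in vehicle cells, a ratio of 1.25 (1.04 to 1.5). Thus 1 of 3 sensors was at least 1.5-fold higher. Zbp1 also differed between the libraries outside cells. In barcodes with 10 to 100 UMIs, which hold mostly free RNA, it had 57 UMIs (256 CPM) in the mSTAR1302 library and 106 UMIs (120 CPM) in the vehicle library.

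The Ifi200 family showed the most members past 2-fold. These genes encode proteins with DNA-binding HIN domains, several of which sense DNA, and they lie side by side on chromosome 1 between bases 173468485 and 173942672 of the mm10 build. Ifi208 stood at 37.3 CPM in mSTAR1302 CD8 cells and 14.2 CPM in vehicle CD8 cells, 2.62-fold higher (2.35 to 2.92). Ifi206 stood at 17.3 CPM in mSTAR1302 and 7.32 CPM in vehicle cells, 2.37-fold higher (2.03 to 2.76), and Ifi214 at 68.8 CPM in mSTAR1302 and 29.8 CPM in vehicle cells, 2.31-fold higher (2.14 to 2.49). These 3 were at least 1.5-fold higher under every alternative that was run. Ifi209 was 1.51-fold higher (1.39 to 1.64) at 43.1 CPM in mSTAR1302 and 28.5 CPM in vehicle cells, and Ifi203 1.39-fold higher (1.34 to 1.45) at 165 CPM in mSTAR1302 and 119 CPM in vehicle cells. Ifi204 had 13.6 CPM in mSTAR1302 and 13.4 CPM in vehicle cells and Ifi213 had 3.14 CPM in mSTAR1302 and 3.11 CPM in vehicle cells, with intervals of the ratio that held 1. The log2 ratio of Ifi213 ran from −1.27 to 1.58 over the alternatives. Family members resemble each other in sequence, and Ifi203 overlaps Mndal on its own strand, so the split of reads among them is uncertain.

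The promoters of 5 of these family members are shown because they hold the same 10 letters of the interferon-stimulated response element although the ratios of the genes differ. Each line gives the 120 bases just before the start site annotated by RefSeq on GRCm38.p6, a C57BL/6J reference and not the BALB/c strain of the mice, read 5′ to 3′ on the strand of the gene. Capitals mark matches to GAAANNGAAA or its reverse complement TTTCNNTTTC, here the core of the element.
Ifi206, chr1:173491319-173491438, minus strand: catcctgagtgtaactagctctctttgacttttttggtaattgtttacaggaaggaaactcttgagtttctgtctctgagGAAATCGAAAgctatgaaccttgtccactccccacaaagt
Ifi208, chr1:173673545-173673664, plus strand: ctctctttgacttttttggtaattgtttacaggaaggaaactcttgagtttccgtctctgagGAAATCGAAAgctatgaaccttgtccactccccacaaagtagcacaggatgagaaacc
Ifi214, chr1:173535958-173536077, minus strand: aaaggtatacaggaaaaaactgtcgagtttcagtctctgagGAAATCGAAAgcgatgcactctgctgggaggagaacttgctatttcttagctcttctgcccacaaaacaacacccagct
Ifi213, chr1:173599273-173599392, minus strand: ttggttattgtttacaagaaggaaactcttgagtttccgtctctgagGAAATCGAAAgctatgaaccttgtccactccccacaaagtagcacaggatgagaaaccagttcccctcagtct
Ifi203, chr1:173942493-173942612, minus strand: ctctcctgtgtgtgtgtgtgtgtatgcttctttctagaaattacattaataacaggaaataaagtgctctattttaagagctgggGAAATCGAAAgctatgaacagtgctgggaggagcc
The match starts 40 bases before the start site of Ifi206, 58 before Ifi208, 79 before Ifi214, 73 before Ifi213 and 35 before Ifi203. The 10 letters GAAATCGAAA, on either strand, were found in 0.0487% of 32851 promoter windows of 300 bases, those of 16 genes. Of genes with these same letters, Ifi208 was 2.62-fold higher and Ifi213 did not differ beyond counting error.

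All 4 measured Ifit genes, of a family known for binding viral RNA and blocking its translation, were higher in mSTAR1302 CD8 cells. Ifit1bl1 had the largest ratio of all members, 3.45 (2.60 to 4.64), at 6.91 CPM in mSTAR1302 cells and 2.00 CPM in vehicle cells. Ifit1 stood at 34.9 CPM in mSTAR1302 and 20.7 CPM in vehicle cells, a ratio of 1.69 (1.54 to 1.85), and Ifit3 at 26.1 CPM in mSTAR1302 and 15.8 CPM in vehicle cells, a ratio of 1.65 (1.48 to 1.84). Ifit2, at 18.6 CPM in mSTAR1302 and 12.5 CPM in vehicle cells, had a ratio of 1.49 (1.32 to 1.69). The ratios of Ifit1 and Ifit3 ranged widely over the alternatives, from 0.24 to 1.48 and from 0.19 to 1.42 on the log2 scale, and did not change sign. The promoter of Ifit1 is shown as one with a repeated core.
Ifit1, chr19:34640769-34640888, plus strand: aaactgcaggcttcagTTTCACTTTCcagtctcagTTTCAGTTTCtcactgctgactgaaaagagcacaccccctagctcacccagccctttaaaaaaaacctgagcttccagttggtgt

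The Oas family split. Its enzymes make an oligoadenylate messenger that activates the RNA-cutting enzyme RNase L, while Oasl1 lacks that activity. Oas3 was 2.80-fold higher (2.45 to 3.22), at 25 CPM in mSTAR1302 CD8 cells and 8.91 CPM in vehicle CD8 cells. Oas1a stood at 9.16 CPM in mSTAR1302 and 7.53 CPM in vehicle cells, a ratio of 1.22 (1.03 to 1.44). Oasl2 was the 1 member at least 1.5-fold lower, with 20 UMIs (0.410 CPM) in mSTAR1302 and 53 UMIs (1.83 CPM) in vehicle cells, 4.47-fold lower (2.63 to 7.89). Oas2 and Oasl1 had few UMIs and intervals that held 1: Oas2 at 1.25 CPM in mSTAR1302 and 0.795 CPM in vehicle cells, ratio 1.57 (0.96 to 2.66), and Oasl1 at 3.09 CPM in mSTAR1302 and 2.56 CPM in vehicle cells, ratio 1.21 (0.91 to 1.62). The log2 ratio of Oasl1 ran from −0.95 to 2.25 over the alternatives. The promoter of Oas3 is shown as that of the member with the second largest ratio.
Oas3, chr5:120777660-120777779, minus strand: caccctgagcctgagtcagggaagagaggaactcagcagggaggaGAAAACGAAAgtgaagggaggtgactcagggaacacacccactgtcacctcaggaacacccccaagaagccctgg

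Of 6 other antiviral effectors, Isg20 and Samhd1 were at least 1.5-fold higher and the other 4 lay within 1.5-fold. Isg20, an exonuclease that degrades single-stranded RNA, stood at 86.1 CPM in mSTAR1302 CD8 cells and 51.1 CPM in vehicle CD8 cells, 1.69-fold higher (1.59 to 1.79). Samhd1, which removes the nucleotides that viruses need to copy DNA, stood at 168 CPM in mSTAR1302 and 104 CPM in vehicle cells, 1.61-fold higher (1.54 to 1.67). Trim30a, known in mouse to restrain inflammatory signalling, was 1.29-fold higher (1.22 to 1.36) at 81.9 CPM in mSTAR1302 and 63.7 CPM in vehicle cells. Rsad2, the antiviral enzyme viperin, stood at 11.4 CPM in mSTAR1302 and 10.3 CPM in vehicle cells, and Cmpk2, its neighbour on chromosome 12, at 4.53 CPM in mSTAR1302 and 4.66 CPM in vehicle cells, both with intervals that held 1. Bst2, the surface protein tetherin that holds budding virus on the cell, stood at 122 CPM in mSTAR1302 and 131 CPM in vehicle cells, 1.07-fold lower (1.02 to 1.11). Bst2 was at 655 CPM in mSTAR1302 and 1713 CPM in vehicle cells without a Cd3 UMI, and its CD8 ratio lay above 1 under median-ratio scaling and without the cells that held other types' markers. Cmpk2 also lay above 1 under median-ratio scaling.

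Of the Schlafen genes, 1 of 3 was past 1.5-fold. Slfn1, named for the growth arrest it gives when expressed in mouse T cells, stood at 71.1 CPM in mSTAR1302 CD8 cells and 35.3 CPM in vehicle CD8 cells, 2.02-fold higher (1.88 to 2.16). Slfn5 stood at 22.9 CPM in mSTAR1302 and 29.1 CPM in vehicle cells, 1.27-fold lower (1.16 to 1.39), and was below 1 under every alternative. Slfn8 stood at 34.1 CPM in mSTAR1302 and 32.5 CPM in vehicle cells with an interval that held 1.

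The genes of Isg15 and of ADP-ribosylation were all above 1. Isg15, a ubiquitin-like protein that is attached to other proteins and can be secreted, stood at 124 CPM in mSTAR1302 CD8 cells and 81.1 CPM in vehicle CD8 cells, 1.54-fold higher (1.46 to 1.61). Usp18, which removes Isg15 and damps signalling from the interferon receptor, stood at 13.3 CPM in mSTAR1302 and 8.22 CPM in vehicle cells, 1.61-fold higher (1.39 to 1.88). Dtx3l, a ubiquitin ligase, was 1.51-fold higher (1.41 to 1.63) at 55.2 CPM in mSTAR1302 and 36.5 CPM in vehicle cells. Its partner Parp9, an ADP-ribosyltransferase, was 1.27-fold higher (1.16 to 1.39) at 30.9 CPM in mSTAR1302 and 24.3 CPM in vehicle cells, and Parp14, of the same enzyme family, 1.08-fold (1.03 to 1.14) at 91.4 CPM in mSTAR1302 and 84.5 CPM in vehicle cells. The Isg15 promoter is shown for its run of overlapping cores.
Isg15, chr4:156200819-156200938, minus strand: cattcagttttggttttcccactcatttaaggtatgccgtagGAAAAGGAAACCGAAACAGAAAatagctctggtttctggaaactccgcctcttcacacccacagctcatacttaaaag

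The last 6 members were also all above 1 in CD8 cells. Rtp4, a protein that helps receptors reach the cell surface, stood at 40.5 CPM in mSTAR1302 cells and 18.9 CPM in vehicle cells, 2.14-fold higher (1.95 to 2.36). Ifi44 stood at 6.76 CPM in mSTAR1302 and 4.11 CPM in vehicle cells, 1.64-fold higher (1.33 to 2.05), and Ifi47, a GTPase that interferon gamma also induces, at 115 CPM in mSTAR1302 and 71.6 CPM in vehicle cells, 1.61-fold higher (1.53 to 1.69). Xaf1, which binds the caspase inhibitor XIAP, stood at 54.2 CPM in mSTAR1302 and 36.4 CPM in vehicle cells, a ratio of 1.49 (1.39 to 1.60). Ifi35 stood at 58.6 CPM in mSTAR1302 and 47.0 CPM in vehicle cells, a ratio of 1.25 (1.17 to 1.33). Ifi27l2a, a small membrane protein, stood at 836 CPM in mSTAR1302 and 708 CPM in vehicle cells, a ratio of 1.18 (1.16 to 1.20). Rtp4, Irf9 and Ifi47 each overlap another gene on the same strand, so part of their reads may belong to it.

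Across the family promoters, 33 members had a RefSeq window of 250 bases before to 50 bases after the start site. The core GAAANNGAAA, searched on both strands, was present in 18 of them (54.5%), against 3.99% of 27025 genes. The core did not sort the members by ratio: the median log2 ratio in CD8 cells was 0.42 for the 18 with it and 0.58 for the 15 without, and 8 of 18 and 7 of 15 were at least 1.5-fold higher. Oas3, with a single core, and Ifit1, with a pair, lay above Isg15, with 3, in ratio. Genes with no match to these letters in the window included Ifit2, Irf7, Samhd1 and Slfn1.

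In CD4 cells without Foxp3 the members did not stand higher in the mSTAR1302 library. Zbp1 was the 1 of 42 at least 1.5-fold higher, at 208 CPM in mSTAR1302 cells and 134 CPM in vehicle cells (1.55-fold, 1.40 to 1.72), against 3.91% of 11470 genes. At least 1.5-fold lower were 18 members, against 30.7% of genes, and 34 lay below 1, against 76.1%. The median log2 ratio was −0.40, with −0.31 for all measured genes. All 4 Ifit genes were lower, as Ifit1 at 16.8 CPM in mSTAR1302 and 31.7 CPM in vehicle cells (1.88-fold lower, 1.43 to 2.49) and Ifit3 at 6.32 CPM in mSTAR1302 and 11.3 CPM in vehicle cells (1.80-fold lower, 1.13 to 2.88). Usp18 stood at 3.25 CPM in mSTAR1302 and 9.72 CPM in vehicle cells, 2.99-fold lower (1.66 to 5.60), Slfn8 at 24.5 CPM in mSTAR1302 and 56.7 CPM in vehicle cells, 2.31-fold lower (1.86 to 2.89), and Ifi209 at 19.3 CPM in mSTAR1302 and 41.4 CPM in vehicle cells, 2.14-fold lower (1.67 to 2.76). Isg15 stood at 117 CPM in mSTAR1302 and 107 CPM in vehicle cells and Isg20 at 79.2 CPM in mSTAR1302 and 82.4 CPM in vehicle cells, with intervals that held 1. The share of lower members was close to that of all genes for the count below 1. In this gate 9 of 9 macrophage markers were at least 1.5-fold lower in mSTAR1302 cells. Without the cells that held at least 3 UMIs of other cell types' markers, the median log2 ratio of 39 members was −0.39, and −0.27 over all genes. The part of other cell types in these ratios was not tested beyond these values.

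In CD4 cells with Foxp3 the precision was lower, since the mSTAR1302 library had 146 such cells. Ifi206 was the 1 member at least 1.5-fold higher, with 13 UMIs (10.4 CPM) in mSTAR1302 and 80 UMIs (5.55 CPM) in vehicle cells and an interval of the ratio that held 1 (0.96 to 3.40), against 6.87% of 12374 genes. At least 1.5-fold lower were 16, against 23.9%, and 33 lay below 1, against 67.4%. These 16 include 5 members with no UMI in the mSTAR1302 cells, namely Ifit1bl1, Oasl1, Oasl2, Oas2 and Ifi213. Against the 3 UMIs that a count of 0 allows, Oasl1 was at least 1.9-fold lower, and the other 4 had vehicle levels under that limit. The median log2 ratio was −0.40, or −0.15 with those 5 at their limits, and −0.18 for all measured genes. Bst2 stood at 86.7 CPM in mSTAR1302 and 198 CPM in vehicle cells, 2.28-fold lower (1.88 to 2.79), and Isg20 at 85.0 CPM in mSTAR1302 and 136 CPM in vehicle cells, 1.59-fold lower (1.31 to 1.96). Samhd1 stood at 366 CPM in mSTAR1302 and 318 CPM in vehicle cells, a ratio of 1.15 (1.04 to 1.27), and Ifi27l2a at 2882 CPM in mSTAR1302 and 3098 CPM in vehicle cells, a ratio of 0.93 (0.90 to 0.96).

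The remaining members in CD4 cells without Foxp3 had log2 ratios of mSTAR1302 over vehicle from −2.60 to 0.41. The transcription factors all lay below 0, at −0.38 for Irf7, −0.27 for Irf9 and −0.88 for Stat2. The RNA sensors were at 0.15 for Ifih1 and −0.43 for Dhx58, both with intervals across 0. In the Ifi200 family Ifi206 was the 1 gene above 0, with −0.40 for Ifi203, −0.26 for Ifi204, 0.31 for Ifi206, −0.39 for Ifi208, −0.27 for Ifi213 and −0.75 for Ifi214. The other Ifit genes were at −0.73 for Ifit2 and −1.39 for Ifit1bl1. In the Oas family Oas3 and Oas1a lay above 0, and the rest had 11 UMIs or fewer in either library, with 0.41 for Oas3, 0.04 for Oas1a, −2.60 for Oas2, −1.50 for Oasl1 and −1.41 for Oasl2. All 5 other antiviral effectors lay below 0, at −0.77 for Rsad2, −0.95 for Cmpk2, −0.28 for Samhd1, −0.84 for Bst2 and −0.60 for Trim30a. Slfn1 and Slfn5 split as in CD8 cells, with 0.32 for Slfn1 and −0.84 for Slfn5. Of the ADP-ribosylation genes Dtx3l lay above 0, with 0.26 for Dtx3l, −0.27 for Parp9 and −0.52 for Parp14. The last group all lay below 0, at −0.36 for Rtp4, −0.13 for Ifi27l2a, −0.01 for Ifi35, −1.52 for Ifi44, −0.11 for Ifi47 and −0.14 for Xaf1.

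For the other members with UMIs from both libraries in CD4 cells with Foxp3, Irf9 was the 1 transcription factor above 0, with log2 ratios of −0.60 for Irf7, 0.14 for Irf9 and −0.49 for Stat2. Zbp1 was the 1 sensor above 0, with 0.19 for Zbp1, −0.41 for Ifih1 and −1.01 for Dhx58. The other Ifi200 genes, like Ifi206, had intervals across 0, with −0.08 for Ifi203, −0.19 for Ifi204, −0.38 for Ifi208, 0.02 for Ifi209 and 0.06 for Ifi214. Ifit genes lay below 0, at −0.16 for Ifit1, −1.23 for Ifit2 and −0.98 for Ifit3, as did the Oas genes at −0.57 for Oas1a and −0.33 for Oas3. Rsad2 was the lowest of all, with 4 UMIs in mSTAR1302 and 233 UMIs in vehicle cells, and effectors stood at −2.33 for Rsad2, −1.22 for Cmpk2 and −0.48 for Trim30a. The Schlafen genes all lay below 0, at −0.02 for Slfn1, −0.44 for Slfn5 and −0.06 for Slfn8. Isg15 and the genes around it had intervals across 0, with −0.08 for Isg15, −0.68 for Usp18, −0.14 for Parp9, 0.05 for Parp14 and 0.03 for Dtx3l. Of the last group Ifi47 lay above 0, with −0.14 for Rtp4, −0.08 for Ifi35, −1.98 for Ifi44, 0.27 for Ifi47 and −0.62 for Xaf1.

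**Figure D2:**
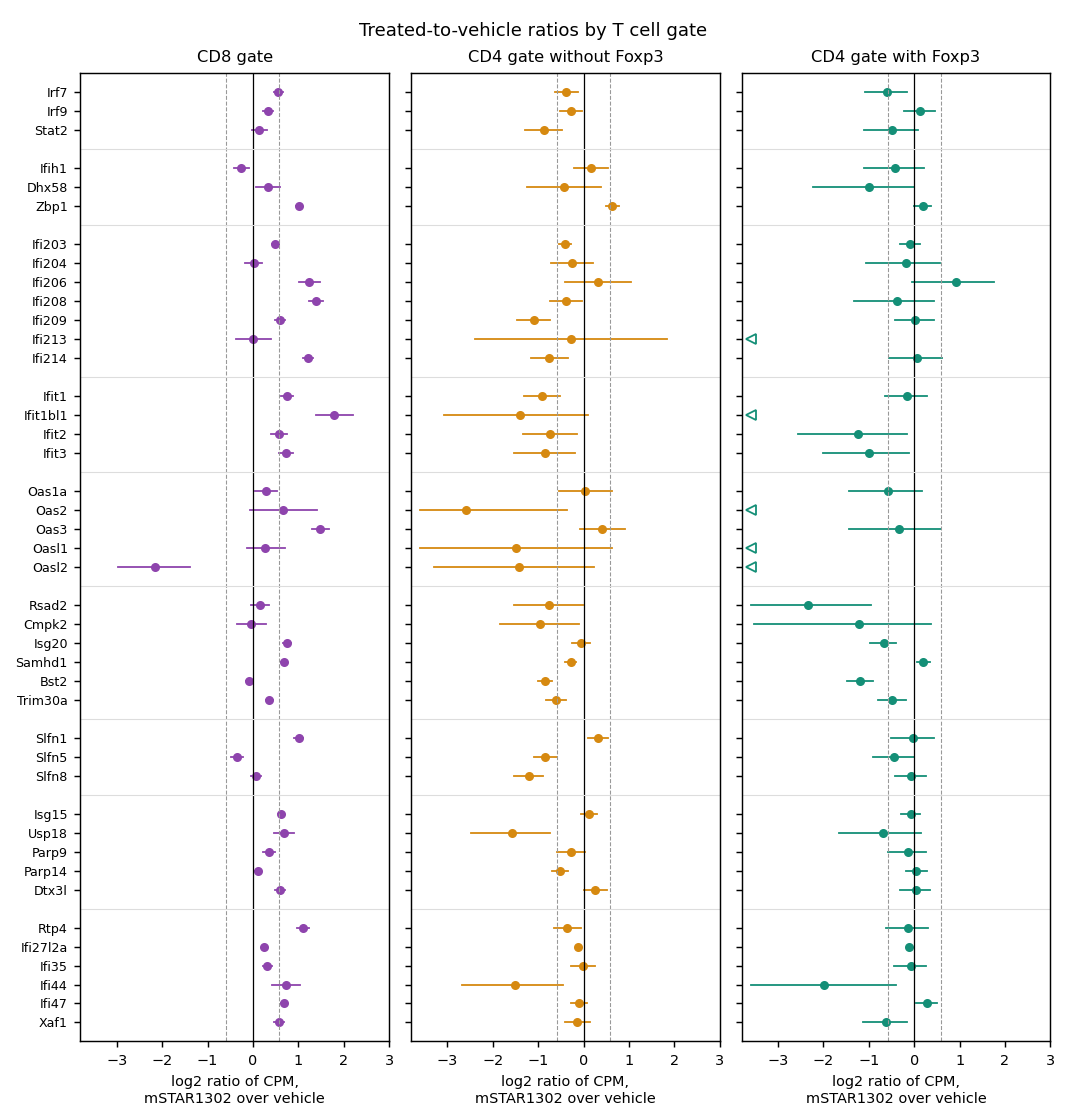
Log2 ratio of mSTAR1302 over vehicle for each of the 42 measured members in the 3 gates, with exact conditional 95% intervals that cover counting error only; dashed lines mark 1.5-fold, open triangles mark the 5 members with no UMI in mSTAR1302 cells, and intervals wider than the axis end near its left edge. Points lie mostly to the right of 0 in the CD8 gate (37 of 42) and mostly to the left in both CD4 gates (34 and 33 of 42).

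Levels were also compared between gates within each library. Within the mSTAR1302 library, 14 members were at least 1.5-fold higher in CD8 cells than in CD4 cells without Foxp3 (22.2% of all genes) and 4 lower (9.9%). Within the vehicle library 2 were higher (18.4%) and 19 lower (16.8%). Against CD4 cells with Foxp3, among genes with a UMI in both gates, 12 of 37 members were higher (12.4%) and 4 lower (27.5%) in the mSTAR1302 library. The 5 members with no UMI in those CD4 cells are not counted there, and with them and all other such genes the count was 17 (24.6%). In the vehicle library 2 were higher (18.7%) and 24 lower (19.1%). Of 37 members measured in the mSTAR1302 library, 7 were at least 1.5-fold higher in CD4 cells with Foxp3 than in those without (26.4%) and 6 lower (12.1%), and of 42 in the vehicle library 10 were higher (18%) and 4 lower (14.4%). The median log2 ratio of CD8 over CD4 cells without Foxp3 was 0.22 in the mSTAR1302 library and −0.55 in the vehicle library, a difference that was not tested. For example, in the mSTAR1302 library Ifi214 stood at 68.8 CPM in CD8 cells and 17.6 CPM in CD4 cells without Foxp3, and in the vehicle library at 29.8 CPM in CD8 and 29.6 CPM in those CD4 cells. Ifi208 was at 37.3 CPM in CD8 and 25.1 CPM in those CD4 cells of the mSTAR1302 library, and at 14.2 CPM in CD8 and 32.9 CPM in those CD4 cells of the vehicle library. Ifi27l2a kept its order, lowest in CD8 cells and highest in CD4 cells with Foxp3, in both libraries.

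Per cell, the difference among CD8 cells lay in many cells with a moderate number of transcripts. Each cell was thinned to 3000 UMIs at random and shallower cells were left out, 680 from the mSTAR1302 and 120 from the vehicle library. A CD8 cell then held a median of 6 member UMIs in the mSTAR1302 library and 4 in the vehicle library, with means of 9.11 in mSTAR1302 and 7.02 in vehicle cells. The 90th percentile of vehicle cells was 16 UMIs, and 14.8% of mSTAR1302 cells (13.9 to 15.8%) lay above it, against 9.96% of vehicle cells (8.77 to 11.2%). Without Ifi27l2a the percentile was 9 UMIs, with 19.2% of mSTAR1302 cells (18.1 to 20.2%) above it and 9.74% of vehicle cells. Within 1 UMI of that percentile lay 583 mSTAR1302 cells and 128 vehicle cells. Cells with no member UMI were 6.22% of the mSTAR1302 and 11.9% of the vehicle CD8 cells on that count. At the far end the order turned: the 99th percentile was 37.9 UMIs in mSTAR1302 cells and 41 in vehicle cells. In CD4 cells without Foxp3, 6.38% of mSTAR1302 cells (4.67 to 8.47%) lay above the vehicle percentile of 14 UMIs, against 9.91% of vehicle cells (7.53 to 12.7%). Above 15 UMIs were 5.97% of mSTAR1302 (2.61 to 11.4%) and 9.93% of vehicle (8.35 to 11.7%) CD4 cells with Foxp3, and the intervals overlap.

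**Figure D3:**
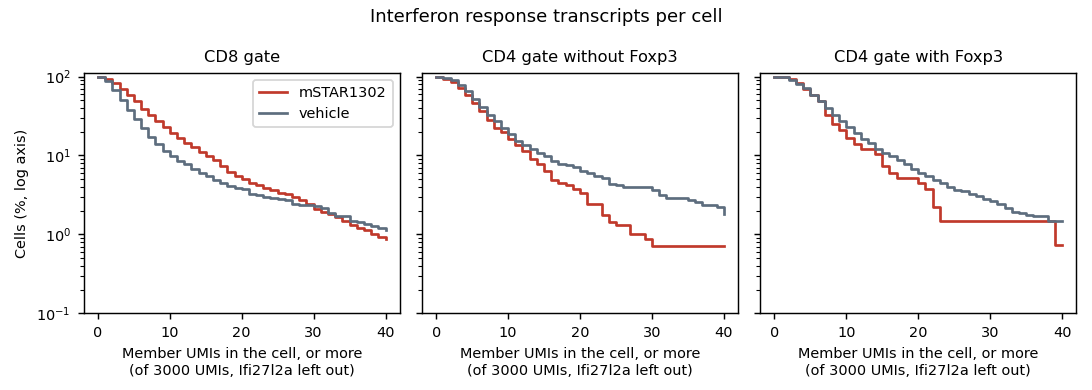
Percentage of cells (log axis) holding at least the number of member UMIs on the horizontal axis, without Ifi27l2a, after thinning to 3000 UMIs per cell, in the 3 gates; red is mSTAR1302 and grey vehicle. In the CD8 gate the mSTAR1302 line lies above the vehicle line up to 29 UMIs and at or below it further right; in the CD4 gate without Foxp3 it lies below the vehicle line throughout, and with Foxp3 over most of the range from 7 UMIs up.

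The members differed in how far they were held by few cells. For each gene, CD8 cells were ranked by the UMIs of the other members, Ifi27l2a left out, and the share of the gene's UMIs in the top 5% of cells was taken after the same thinning. Rsad2 was the most concentrated, with 72.3% of its 166 UMIs in those mSTAR1302 cells and 84.0% of 94 in those vehicle cells. Ifit1 had 49.3% in mSTAR1302 and 75.4% in vehicle cells, Ifit3 53.7% in mSTAR1302 and 67.8% in vehicle cells, Cmpk2 52.0% in mSTAR1302 and 67.6% in vehicle cells, Usp18 41.3% in mSTAR1302 and 54.2% in vehicle cells, and Isg15 38.5% in mSTAR1302 and 56.2% in vehicle cells. At the other end were Ifi27l2a with 10.5% in mSTAR1302 and 13.4% in vehicle cells, Irf9 with 11.6% in mSTAR1302 and 16.8% in vehicle cells, and Zbp1 with 15.8% in mSTAR1302 and 31.4% in vehicle cells. The median over members was 22.9% in 41 genes of the mSTAR1302 library and 33.6% in 40 genes of the vehicle library. More than 50% of the UMIs lay in those cells for 3 members in the mSTAR1302 library, Rsad2, Ifit3 and Cmpk2, and for 8 in the vehicle library, and 0 members in either were under 10%, against the 5% of an even spread. Samhd1 had 16.7% in mSTAR1302 and 23.5% in vehicle cells, and Slfn1 19.9% in mSTAR1302 and 26.6% in vehicle cells. Genes at both ends differed in ratio. Among those most held by few cells, Ifit1 was 1.69-fold and Ifit3 1.65-fold higher while Rsad2 and Cmpk2 had intervals across 1, and among those spread more widely, Slfn1 was 2.02-fold and Samhd1 1.61-fold higher while Irf9 and Ifi27l2a were at 1.26 and 1.18.

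**Figure D4:**
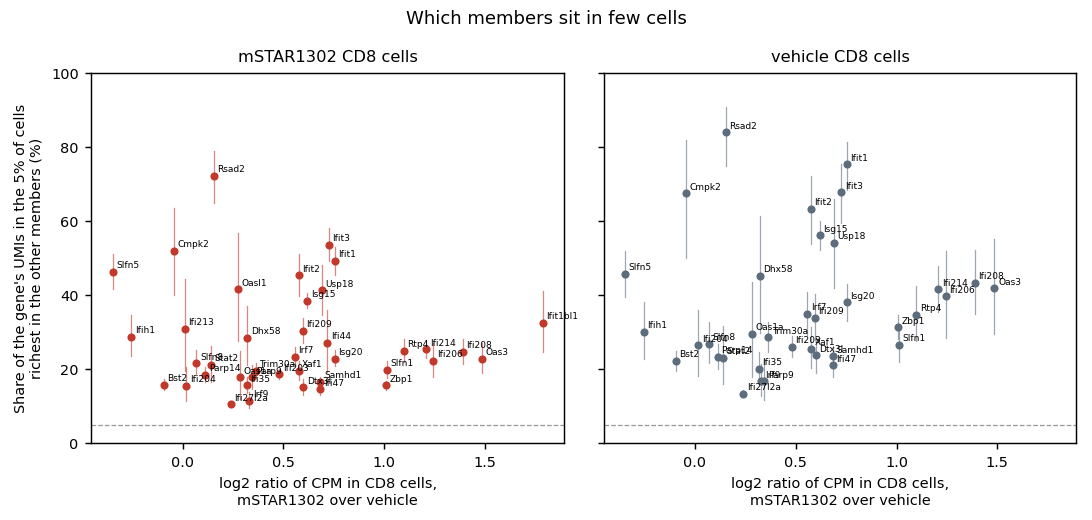
Share of each gene's UMIs found in the 5% of CD8 cells richest in the other members (percent, exact 95% intervals for counting error), against the gene's log2 ratio of mSTAR1302 over vehicle, in mSTAR1302 cells (left) and vehicle cells (right); the dashed line is the 5% that an even spread would give. Genes with few UMIs after thinning are not drawn: Oasl2 and Oas2 on the left, and Ifit1bl1, Oasl1, Oasl2, Oas2, Ifi44 and Ifi213 on the right. Rsad2 is highest in both libraries at 72.3% in mSTAR1302 and 84.0% in vehicle cells, Ifi27l2a lowest at 10.5% in mSTAR1302 and 13.4% in vehicle cells.

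The receptor chains that mSTAR1302 binds are encoded by the segments Trbv13-2 and Trbv13-3. Members were compared between CD8 cells with a UMI of either segment and CD8 cells with a UMI of another Trbv segment only. Most CD8 cells had no Trbv UMI and were in neither set, 4683 in the mSTAR1302 library. Those had a median of 6010 UMIs, against 8329 in mSTAR1302 Trbv13-2 or Trbv13-3 cells and 8469 in the others, so the segment results cover a deeper part of the gate. In the mSTAR1302 library, with 805 Trbv13-2 or Trbv13-3 cells and 802 others, all 41 measured members had a higher level in the Trbv13-2 or Trbv13-3 cells, 28 of them at least 1.5-fold (9.71% of 11668 genes) and 0 at least 1.5-fold lower (10.1%). The median log2 ratio was 0.76, and 0.05 over all genes. Rsad2 had the largest ratio, with 141 UMIs (18.1 CPM) in Trbv13-2 or Trbv13-3 cells and 28 UMIs (3.44 CPM) in the others, 5.26-fold higher (3.49 to 8.2). Isg15 stood at 159 CPM in Trbv13-2 or Trbv13-3 cells and 74.0 CPM in the others, 2.15-fold higher (1.95 to 2.38), Isg20 at 110 CPM in Trbv13-2 or Trbv13-3 cells and 50.2 CPM in the others, 2.19-fold higher (1.95 to 2.47), and Zbp1 at 230 CPM in Trbv13-2 or Trbv13-3 cells and 135 CPM in the others, 1.70-fold higher (1.58 to 1.83). These are cells of 1 library, and cells that share a segment may descend from a few clones, so the intervals do not measure spread between animals.

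The same comparison in the vehicle library had 101 Trbv13-2 or Trbv13-3 cells and 503 others and less precision. Of 38 measured members 33 lay above 1, 10 were at least 1.5-fold higher (8.8% of 11096 genes) and 3 lower (12.3%). The median log2 ratio was 0.38, and 0.01 over all genes. Rsad2 was again high, at 32.3 CPM in Trbv13-2 or Trbv13-3 cells and 6.38 CPM in the others, 5.06-fold higher (3.24 to 7.92). Isg15 stood at 129 CPM in Trbv13-2 or Trbv13-3 cells and 77.8 CPM in the others, 1.66-fold higher (1.39 to 1.97), while Slfn5 stood at 11.5 CPM in Trbv13-2 or Trbv13-3 cells and 28.6 CPM in the others, 2.49-fold lower. The difference between the medians of the libraries was not tested. Within CD4 cells without Foxp3 the segment comparison rested on 28 Trbv13-2 or Trbv13-3 cells and 165 others in the mSTAR1302 library, with a median log2 ratio of −0.25, and on 20 and 132 others in the vehicle library, with −0.47. Over all genes the median was −0.03 in either library.

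The libraries were also compared within each segment set, and the difference between the sets was not tested. In Trbv13-2 or Trbv13-3 CD8 cells the median log2 ratio of mSTAR1302 over vehicle was 0.45, and −0.14 over all genes. There 16 of 41 members were at least 1.5-fold higher (11.6% of genes) and 3 lower (20.3%). In cells of other segments the median was 0.11, and −0.19 over all genes, with 7 of 40 higher (4.91%) and 2 lower (17.5%). Zbp1 stood at 230 CPM in mSTAR1302 and 112 CPM in vehicle cells in the first set, 2.06-fold higher (1.75 to 2.44), and Ifi214 at 83.7 CPM in mSTAR1302 and 33.7 CPM in vehicle cells, 2.48-fold higher (1.85 to 3.41). Rsad2 was lower in both sets, at 18.1 CPM in mSTAR1302 and 32.3 CPM in vehicle cells (1.78-fold) and at 3.44 CPM in mSTAR1302 and 6.38 CPM in vehicle cells (1.85-fold). A Pdcd1 UMI was found in 20.7% of mSTAR1302 and 67.3% of vehicle cells of the first set, and in 49.0% of mSTAR1302 and 70.0% of vehicle cells of the second. At least 3 UMIs of other cell types' markers were held by 11.3% of mSTAR1302 and 29.7% of vehicle cells of the first set and by 9.85% of mSTAR1302 and 39.6% of vehicle cells of the second, and the part of both in these ratios was not tested. This comparison, and the one by single segments, were added after the data were seen.

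By single segment, the summed level of the members without Ifi27l2a was highest for Trbv13-2, Trbv13-3 and Trbv12-2 in the mSTAR1302 library. It was 2375 CPM (2308 to 2445) in 208 Trbv13-2 cells, 2327 CPM (2280 to 2374) in 457 Trbv13-3 cells and 1997 CPM (1939 to 2056) in 250 Trbv12-2 cells. The remaining segments with enough cells ran from 1236 CPM for Trbv29 through 1060 for Trbv19, 1019 for Trbv2 and 983 for Trbv14 to 712 CPM for Trbv5. Trbv13-2 and Trbv13-3 did not differ beyond their intervals, and neither did Trbv19, Trbv2 and Trbv14 as neighbours in that order. CD8 cells with no Trbv UMI, 4683 of the mSTAR1302 and 1856 of the vehicle library, stood at 2060 CPM in mSTAR1302 and 1375 CPM in vehicle cells. In the vehicle library the level was 1650 CPM for Trbv13-2, 1300 for Trbv19, 1194 for Trbv2, 1185 for Trbv12-2 and 889 CPM for Trbv5. Trbv12-2 is next to the named target segments in its level but is not among the chains that mSTAR1302 is described to bind.

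**Figure D5:**
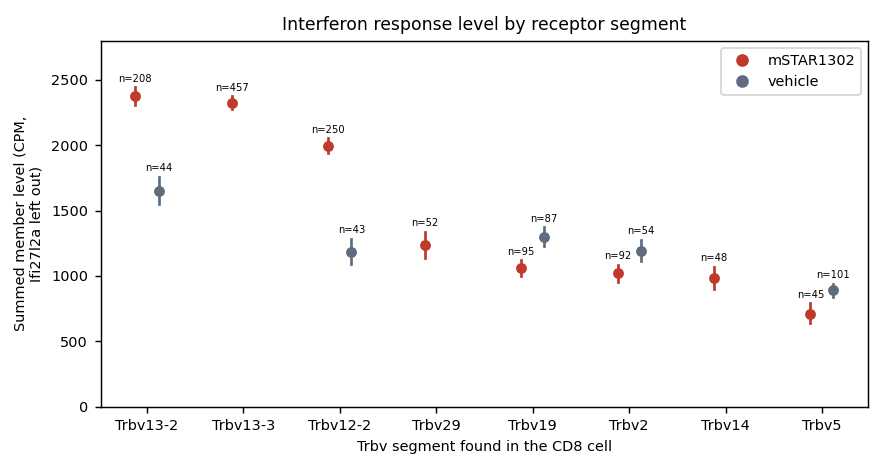
Summed level of the members without Ifi27l2a (CPM, axis from 0) in CD8 cells that held UMIs of a single Trbv segment, by segment, with exact 95% Poisson intervals for counting error and the number of cells above each point; mSTAR1302 is red and vehicle grey. In the mSTAR1302 library Trbv13-2, Trbv13-3 and Trbv12-2 lie at 2375, 2327 and 1997 CPM, above all other segments shown; the vehicle library ranges from 889 to 1650 CPM.

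Cells that differ in Pdcd1 took different shares of these comparisons. Among CD8 cells with a Pdcd1 UMI, the median log2 ratio of the members between the libraries was 0.16, with 6 at least 1.5-fold higher (4.3% of all genes) and 3 lower (22.3%). Among cells without one it was 0.23, with 9 higher (6.5%) and 2 lower (28.6%), against 0.57 and 19 higher in all CD8 cells. The median of all genes was −0.23 in both sets. In the mSTAR1302 library a Pdcd1 UMI was found in 20.7% of Trbv13-2 or Trbv13-3 cells and 49.0% of other segment cells, and the median between those sets was 0.94 within cells that had one and 0.34 within cells that had none. Macrophage markers summed to 47.4 CPM in the Trbv13-2 or Trbv13-3 cells and 43.0 CPM in the other segment cells. Leaving out the CD8 cells with at least 3 UMIs of other cell types' markers gave a median between the libraries of 0.47 with 16 members at least 1.5-fold higher (7.91%), and a median between the segment sets of 0.81. In the barcodes with free RNA the members summed to 2906 CPM in the mSTAR1302 library and 3772 CPM in the vehicle library. That order, opposite to the CD8 cells, rested on Ifi27l2a. There it stood at 1034.5 CPM in mSTAR1302 and 2074.3 CPM in vehicle, a wider gap than that between the sums. The median log2 ratio of 34 members in these barcodes was 0.32. The part of Pdcd1, of other cell types and of free RNA in the ratios of the members was not tested beyond these values.

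The genes around the members in the pathway were described from lists that are not the members. Transcripts of type I interferons themselves were at or near 0. Of 21 interferon ligand genes, 19 had no UMI in the mSTAR1302 CD8 gate and 19 had none in the vehicle CD8 gate, Ifnb1 among them, which allows each up to 3 UMIs of 48798286 and of 28941995. Besides Ifng, the exceptions were 2 UMIs of Ifna2 in mSTAR1302 cells and 2 UMIs of Ifnl3 in vehicle cells. Ifng, which encodes interferon gamma, stood at 1422 CPM in mSTAR1302 CD8 cells and 1009 CPM in vehicle CD8 cells, a ratio of 1.41 (1.39 to 1.43). It was also higher in CD4 cells without Foxp3, at 348 CPM in mSTAR1302 and 124 CPM in vehicle cells (2.81-fold, 2.55 to 3.10). In the mSTAR1302 library Ifng stood at 583 CPM in Trbv13-2 or Trbv13-3 cells and 2296 CPM in other segment cells. In the vehicle library it stood at 1266 CPM in Trbv13-2 or Trbv13-3 cells and 730 CPM in other segment cells. Whether Ifng bears on the levels of the members was not tested.

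The receptor and its kinases differed little in CD8 cells. Ifnar1 stood at 88.5 CPM in mSTAR1302 cells and 111 CPM in vehicle cells, a ratio of 0.80 (0.76 to 0.83), and the ratio of Ifnar2 was 0.89 (0.83 to 0.95). Jak1 stood at 335 CPM in mSTAR1302 and 302 CPM in vehicle cells, Jak2 at 61.3 CPM in mSTAR1302 and 61.8 CPM in vehicle cells, and Tyk2 at 14.3 CPM in mSTAR1302 and 16.1 CPM in vehicle cells. Of the interferon gamma receptor, Ifngr1 stood at 470 CPM in mSTAR1302 and 322 CPM in vehicle cells, a ratio of 1.46 (1.42 to 1.49), and Ifngr2 at 1.91 CPM in mSTAR1302 and 6.81 CPM in vehicle cells, 3.57-fold lower. Of these 7 genes 0 were at least 1.5-fold higher (6.15% of all genes) and 1 was lower (27.5%). In CD4 cells without Foxp3, Ifnar1 and Ifnar2 were 1.79-fold and 1.76-fold lower.

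Of 8 further transcription factors, 0 were at least 1.5-fold higher (6.15% of all genes) and 4 lower (27.5%) in mSTAR1302 CD8 cells. Irf8, which myeloid cells and activated T cells express, stood at 137 CPM in mSTAR1302 cells and 326 CPM in vehicle cells, Stat3 at 182 CPM in mSTAR1302 and 370 CPM in vehicle cells, Irf4 at 67.7 CPM in mSTAR1302 and 103 CPM in vehicle cells, and Irf5 at 4.92 CPM in mSTAR1302 and 10.7 CPM in vehicle cells. Among 9 feedback inhibitors 1 was at least 1.5-fold higher, Socs2 at 30.4 CPM in mSTAR1302 and 19.8 CPM in vehicle cells, and 0 lower. Of 12 measured sensing genes 0 were at least 1.5-fold higher and 4 lower, and each of the 4 averaged under 5 CPM over the libraries.

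Of all genes measured in CD8 cells, 6.15% were at least 1.5-fold higher and 27.5% lower, with a median log2 ratio of −0.23. A list of 55 other measured interferon-induced genes had a median log2 ratio of 0.10 in CD8 cells, with 4 at least 1.5-fold higher and 5 lower. The higher ones included Epsti1 at 241 CPM in mSTAR1302 cells and 94.4 CPM in vehicle cells, Phf11c at 10.6 CPM in mSTAR1302 and 5.18 CPM in vehicle cells and Ifi211, another Ifi200 gene, at 19.8 CPM in mSTAR1302 and 11.2 CPM in vehicle cells. Ube2l6, the enzyme that conjugates Isg15, was lower at 7.21 CPM in mSTAR1302 and 14.2 CPM in vehicle cells. Of 17 measured genes led by interferon gamma, 3 were at least 1.5-fold higher and 1 lower, with a median of 0.16. The 3 were the GTPases Igtp at 120 CPM in mSTAR1302 and 58.5 CPM in vehicle cells, Gbp4 at 211 CPM in mSTAR1302 and 112 CPM in vehicle cells and Gbp2 at 78.0 CPM in mSTAR1302 and 42.0 CPM in vehicle cells.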

How the data were processed

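UMI counts per gene and barcode came from the deposited 10x matrices, which hold all barcodes and raw counts. The submitters' processing notes name Cell Ranger 6.0.1 and the mm10 build, while the file headers name Cell Ranger 4; which of the 2 made the counts is not settled. The genes and the lists around them were chosen with earlier results of these data known, so no count is independent support.

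For each gate in each library, counts were added up over its cells and scaled to CPM. Ratios are without pseudocount. Intervals are exact at 95%: Poisson for a level, conditional binomial for a ratio, Clopper-Pearson for a share. They cover counting error only. A gene is measured with at least 10 UMIs over both libraries. With 1 library per group no count model and no test could be run, so 1.5-fold and 2-fold stand in for a call. Every measured member is named, and of each pathway list up to 4 genes with the largest ratios past 1.5-fold at a mean of 5 CPM, plus ligands and receptors. No doublet caller was run and no cell was removed as a doublet; an upper limit of 20000 UMIs is an alternative. Thinning used 1 fixed seed. Gene positions are from GENCODE M21, in which 32158 of 32285 IDs were found, and promoters from RefSeq on GRCm38.p6. Computation used pandas 2.3.3, NumPy 2.4.6 and SciPy 1.17.1 in Python 3.11.15, with plots by matplotlib 3.10.9, and the ratio and interval code was tested on simulated data. The values of a single transcription factor of the pathway lists are not reported here, although it is counted among them.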

Additional observations from a re-analysis of the deposited data

Results flagged for a closer look

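Of the members, 18 had a log2 ratio of mSTAR1302 over vehicle whose counting interval lay on 1 side of 0 in CD8 cells and on the other side in a CD4 gate. The same count was not taken over all genes. The difference between gates has no replicates and was not tested. CD8 minus CD4 without Foxp3, it was 1.67 for Ifit1, 1.31 for Ifit2, 1.57 for Ifit3, 2.27 for Usp18, 2.23 for Ifi44, 1.46 for Rtp4, 0.938 for Irf7, 0.604 for Irf9, 0.371 for Ifi27l2a, 0.635 for Parp14, 0.962 for Trim30a and 0.962 for Samhd1. Within the Ifi200 family it was 0.882 for Ifi203, 1.78 for Ifi208, 1.69 for Ifi209 and 1.96 for Ifi214. CD8 minus CD4 with Foxp3, it was 1.80 for Ifit2, 1.71 for Ifit3, 1.43 for Isg20, 1.16 for Irf7, 0.344 for Ifi27l2a, 2.70 for Ifi44, 1.20 for Xaf1 and 0.844 for Trim30a. Every one of these differences is positive. A negative one could come only from the 4 members whose CD8 interval lay below 0.

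Cells and barcodes outside the 3 gates also held members. In T cells with UMIs of both Cd4 and Cd8, 843 of the mSTAR1302 and 1302 of the vehicle library, the median log2 ratio was 0.0134, and −0.28 over all genes. In kept cells with no Cd3 UMI, 192 of the mSTAR1302 and 472 of the vehicle library, it was 0.910, and −0.09 over all genes. There 25 of 41 members were at least 1.5-fold higher (17.8% of all genes). The summed level was 3709 CPM in the mSTAR1302 and 4181 CPM in the vehicle library. Bst2 alone stood at 655 CPM in mSTAR1302 and 1713 CPM in vehicle cells, a wider gap than that between the sums. In barcodes of 10 to 100 UMIs the median log2 ratio was 0.317 over 34 members, and −0.20 over all genes.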

How the results depend on the processing

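Over 19 alternatives the median log2 ratio of the members in CD8 cells stayed above 0, from 0.16 to 0.70. The median of all genes, where it was taken, ran from −0.25 to −0.09. The count of members at least 1.5-fold higher ran from 6 to 25. The share of all genes was not taken for every alternative, so that range has no share to be set against. Median-ratio scaling, which moved the median of all genes from −0.23 to −0.09 in that gate, gave a median of 0.70. The alternatives by Pdcd1 were chosen after the data were seen. Cells with a Pdcd1 UMI gave 0.1578 and 6 members (4.3% of all genes). Cells without one gave 0.2316 and 9 members (6.5%). The cause was not tested. At least 1.5-fold higher in CD8 cells under every alternative were 6 members (Ifit1bl1, Oas3, Ifi206, Ifi208, Ifi214 and Slfn1), and 27 of 42 did not change sign under any. Neither count was taken over all genes.

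In CD4 cells without Foxp3 the median ran from −0.50 to −0.21 over 16 alternatives, and the count of higher members was 2 with median-ratio scaling, 3 when thinned to 2000 UMIs and 3 with no Cd3 requirement, in place of 1. In CD4 cells with Foxp3 the median ran from −0.46 to −0.02, near 0 when cells were thinned or cycling cells left out, and the count was 2 with at least 2 lineage UMIs and 3 without cycling cells, in place of 1. Members that changed sign under at least 1 alternative were 11 and 24. These counts in the CD4 gates were not taken over all genes. The median between Trbv13-2 or Trbv13-3 cells and other segment cells was 0.3385 within cells without a Pdcd1 UMI, in place of 0.7553. The share of mSTAR1302 CD8 cells above the vehicle percentile was 19.16% without Ifi27l2a, in place of 14.8%.

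No paired analysis was possible because each group is 1 library, which leaves no pairs and no replicate to leave out. Depth limits Oasl1, Oasl2, Oas2, Ifit1bl1 and Ifi213 most, and the CD4 gate with Foxp3 throughout.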
